A study of Bos taurus with 6 samples.

Results

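Imprinted genes are expressed mainly from the copy inherited from 1 parent, and many of them control fetal growth, placental function and the supply of nutrients. They lie in clusters in which methylated control regions set the expression of several neighbors, and they are also expressed in the ovary, where granulosa cells surround the oocyte and produce estradiol. The genes described here are H19, PEG3, PEG10, MEST, PLAGL1, GRB10, DLK1, NNAT and SGCE, which are 9 imprinted genes other than the IGF ligands. Each was found by its symbol in the annotation of the array platform, and each had 1 probe, so 9 of the 18010 genes with a probe of their own were included. The array measures the RNA of both parental copies together, so it does not show which copy was expressed.

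Bovine granulosa cells from follicles of 2 to 6 mm were frozen, thawed and plated in medium that held FSH at 20 ng/mL and R3 IGF1 at 50 ng/mL. On culture day 2 most of the medium was replaced, and the cells received 50 μM LY294002, which inhibits PI3K, the kinase upstream of AKT, and which also acts on other kinases, or DMSO as vehicle control, in medium without FSH and IGF1. A second exchange, again of the larger part of the medium, came 2 h later and gave FSH and IGF1 back to both groups. The methods name no inhibitor for this second medium, so the LY294002 level from then on is not known. The methods give a time shortly after this exchange or day 4 for the analysis of cells, and do not say which holds for the arrays. Day 4 is taken here as the day of the RNA. Bovine Gene 1.0 ST arrays, 6 in number, measured the RNA of 3 samples with DMSO and 3 with LY294002. The methods state for cell culture experiments in general that biological replicates came from ovaries of different days. Neither they nor the labels name the culture behind each array, so errors and p-values cover the spread between these arrays only.

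The values are log2 signals, so a difference of 1 is a 2-fold change. Array medians lay between 4.98 and 5.01, and a typical probe had an SD of 0.11 between DMSO arrays and of 0.10 between LY294002 arrays. The words rose and fell are used for a gene where the linear model of limma gave an adjusted p under 0.05 over all 24415 probes and the fold change was at least 1.4, which is 0.49 on the log2 scale. By these thresholds 6.98% of all 18010 genes were called, 2.99% higher and 3.99% lower with LY294002. Markers of the labelled cell type were present, with INHA at 10.28 ± 0.09 (SD, n = 3) and FSHR at 7.79 ± 0.16 (SD, n = 3) in DMSO.

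Of the 9 imprinted genes, H19 and MEST fell with LY294002, PEG10, PEG3 and NNAT rose, and SGCE, DLK1, PLAGL1 and GRB10 did not pass. The list of genes was chosen by a procedure that had the LY294002 and DMSO values of these arrays in view. H19 also stands in a list that the study drew up from these arrays and from its earlier arrays with an ERK pathway inhibitor. Those lists hold only genes that the study called with both inhibitors, so a gene called here can be absent from them. The count of 5 called genes beside 6.98% of all genes is therefore a description, and differences of these genes are given with their error and without a p-value. The groups lay apart for 6 of the 9, beside 37.1% of all genes. The SD within a group ranged from 0.01 to 0.25 over the 9 genes, and the gap between the groups of the 5 called genes from 0.57 to 1.12. In RNA from whole cultures, fewer cells that express a gene and less of its RNA per cell cannot be told apart.

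**Figure D1:**
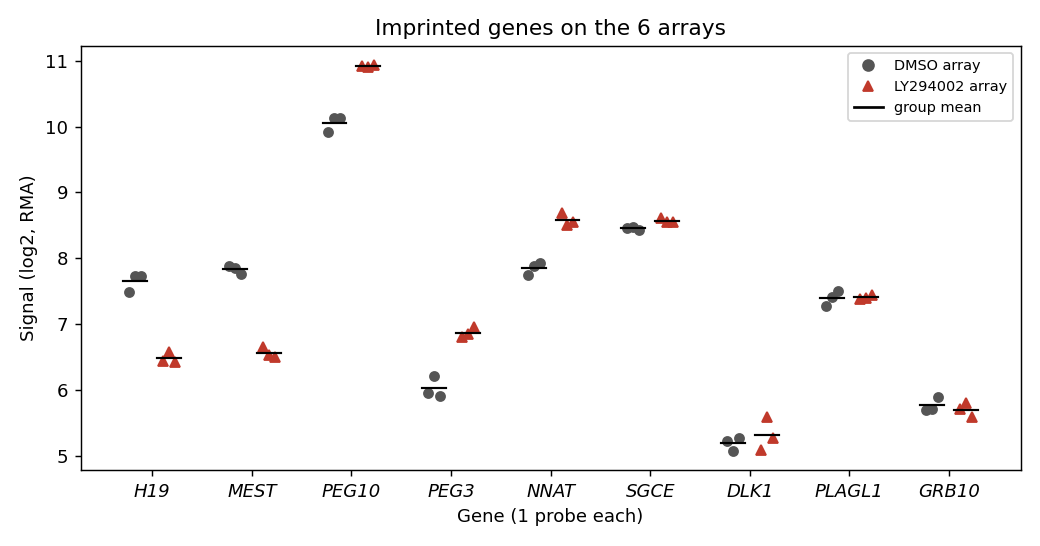
Log2 signal of the 9 imprinted genes on each array, with circles for DMSO, triangles for LY294002 and a line for the mean of 3 arrays. H19 and MEST lie lower and PEG10, PEG3 and NNAT higher on every LY294002 array, while the groups overlap for DLK1, PLAGL1 and GRB10. Heights of different genes are not comparable, because each probe binds with its own strength.

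H19 is a long noncoding RNA expressed from the maternal copy. It lies beside IGF2, serves as the precursor of a microRNA and, in mice, restrains the expression of other imprinted genes. The H19 signal (probe 12829082) was 7.49, 7.73 and 7.73 in DMSO and 6.45, 6.58 and 6.43 in LY294002. All LY294002 arrays were lower, and the lowest DMSO array stood 0.91 above the highest LY294002 array. The difference was -1.16 (SE 0.09, 95% interval -1.38 to -0.95), a 2.24-fold fall.

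MEST, also known as PEG1, is a paternally expressed gene for an enzyme of the alpha/beta hydrolase family, and in mice it promotes growth. The MEST signal (probe 12849407) was 7.89, 7.86 and 7.77 in DMSO and 6.65, 6.54 and 6.51 in LY294002. The gap between the groups was 1.12, the widest of the 9 genes. The difference was -1.27 (SE 0.07, 95% interval -1.44 to -1.11), a 2.42-fold fall. Among all 18010 genes, 84 had a more negative difference than MEST and 111 a more negative one than H19.

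PEG10 is a paternally expressed gene derived from a retrotransposon and is needed for the placenta in mice. The PEG10 signal (probe 12852106) was 9.92, 10.13 and 10.13 in DMSO and 10.92, 10.91 and 10.93 in LY294002. The LY294002 arrays differed from each other by 0.02 and stood at least 0.78 above each DMSO array. The difference was 0.86 (SE 0.08, 95% interval 0.67 to 1.05), a 1.82-fold rise.

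PEG3 encodes a zinc finger protein that is expressed from the paternal copy and acts in cell survival and, in mice, in maternal behavior. The PEG3 signal (probe 12756042) was 5.96, 6.22 and 5.91 in DMSO and 6.81, 6.85 and 6.96 in LY294002. All LY294002 arrays were higher, with a gap of 0.59. The difference was 0.84 (SE 0.10, 95% interval 0.61 to 1.08), a 1.79-fold rise. A second probe (12748829) is annotated both to PEG3 and to APEG3, the antisense transcript of the same locus, and was therefore not assigned to a gene. It read 5.32, 5.12 and 5.10 in DMSO and 5.03, 5.19 and 5.22 in LY294002, so that its groups overlapped (difference -0.03, SE 0.09, 95% interval -0.25 to 0.18).

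NNAT encodes neuronatin, a small membrane protein of the endoplasmic reticulum that is expressed from the paternal copy. The NNAT signal (probe 12713915) was 7.75, 7.89 and 7.93 in DMSO and 8.69, 8.50 and 8.55 in LY294002. The groups did not overlap, and the gap between them was 0.57. The difference was 0.72 (SE 0.08, 95% interval 0.53 to 0.92), a 1.65-fold rise.

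SGCE encodes epsilon-sarcoglycan, a membrane protein, and is expressed from the paternal copy. The SGCE signal (probe 12853265) was 8.46, 8.48 and 8.43 in DMSO and 8.61, 8.55 and 8.55 in LY294002. The arrays of the groups did not overlap, but the gap was 0.07 and the difference 0.11 (SE 0.06, 95% interval -0.03 to 0.25), which is under 1.4-fold.

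DLK1 encodes a membrane protein of the Notch ligand type that holds back differentiation in several tissues. The DLK1 signal (probe 12789017) was 5.23, 5.08 and 5.27 in DMSO and 5.10, 5.59 and 5.28 in LY294002. Its highest value came from an LY294002 array and its lowest from a DMSO array, but the other values overlapped, and the SD of 0.25 in LY294002 was the largest of the 9 genes. The difference was 0.13 (SE 0.13, 95% interval -0.19 to 0.45).

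PLAGL1, also known as ZAC1, encodes a zinc finger transcription factor that in mice regulates a network of imprinted genes, H19 among them. The PLAGL1 signal (probe 12901148) was 7.28, 7.41 and 7.50 in DMSO and 7.39, 7.40 and 7.44 in LY294002. The LY294002 values lay inside the range of the DMSO values. The difference was 0.01 (SE 0.08, 95% interval -0.17 to 0.19).

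GRB10 encodes an adaptor protein that binds the insulin and IGF1 receptors and dampens their signals to PI3K and AKT. The GRB10 signal (probe 12849431) was 5.70, 5.71 and 5.90 in DMSO and 5.72, 5.81 and 5.59 in LY294002. The groups overlapped, and the difference was -0.06 (SE 0.09, 95% interval -0.28 to 0.15). The intervals of DLK1, PLAGL1, GRB10 and SGCE all stayed within 1.4-fold in either direction.

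Genes usually expressed from the same parental copy did not all move the same way. Of the 7 genes known mainly for expression from the paternal copy (PEG3, PEG10, MEST, PLAGL1, DLK1, NNAT and SGCE), 3 rose, 1 fell and 3 did not pass. Of all genes, 2.99% rose and 3.99% fell. The list was chosen with these values in view, so the counts are a description. H19, the maternally expressed gene, fell with MEST. GRB10, whose expressed copy depends on the tissue, did not pass.

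Genes of 1 imprinted cluster can share control elements, so the signals of genes at the same locus were compared within each array. Where 1 gene of a pair was called and the other was not, a shift between them largely follows from those calls. PEG10 and SGCE start next to each other in opposite directions. The signal of PEG10 minus that of SGCE was 1.46, 1.65 and 1.70 in DMSO and 2.31, 2.36 and 2.38 in LY294002. This within-array difference was 0.75 higher in LY294002, which follows from the differences of 0.86 for PEG10 and 0.11 for SGCE. CASD1 (0.27, SE 0.08, adjusted p = 0.0856) and PPP1R9A (0.15, SE 0.09, adjusted p = 0.322), which flank the pair, did not pass. PEG10 minus PPP1R9A was 0.71 higher in LY294002, with a gap of 0.52 between the groups.

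H19 and IGF2, which encodes a growth factor expressed from the paternal copy, share enhancers and a control region in mammals. The IGF2 signal was 7.88, 8.08 and 8.06 in DMSO and 8.13, 8.14 and 8.09 in LY294002 (difference 0.11, SE 0.07, adjusted p = 0.399). H19 minus IGF2 was -0.39, -0.35 and -0.33 in DMSO and -1.68, -1.56 and -1.66 in LY294002, a shift of -1.28 with a gap of 1.17 between the groups. Relative to IGF2, H19 was thus lower on every LY294002 array. MIR483, a microRNA gene within IGF2, had a difference of 0.17 (adjusted p = 0.193).

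MEST holds the gene of the microRNA MIR335 and overlaps the end of COPG2, a gene of the COPI vesicle coat. MEST minus COPG2 was -0.30, -0.38 and -0.33 in DMSO and -1.61, -1.71 and -1.84 in LY294002, a shift of -1.38. COPG2 itself had a difference of 0.11 (SE 0.07, adjusted p = 0.366). The probe of MIR335 read 2.72 ± 0.06 in DMSO and 2.71 ± 0.07 in LY294002 (SD, n = 3), within the dimmest 25% of probes, where a change may not be seen. The difference of CEP41, on the other side of MEST, was -0.26 (adjusted p = 0.101).

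NNAT lies within an intron of BLCAP, a gene linked to apoptosis. NNAT minus BLCAP was 0.36, 0.37 and 0.26 in DMSO and 0.93, 0.76 and 0.77 in LY294002, a shift of 0.49. BLCAP had a difference of 0.23 (SE 0.08, adjusted p = 0.129), in the same direction as NNAT but without passing. For DLK1 minus MEG3, a long noncoding RNA gene of the same cluster, the groups overlapped, with 0.33, 0.13 and 0.43 in DMSO and 0.30, 0.82 and 0.43 in LY294002. MEG3 had a difference of -0.09 (SE 0.06, adjusted p = 0.428). ZIM2, which in humans shares its start with PEG3, was among the dimmest probes (1.95 ± 0.17 in DMSO, SD, n = 3) and had a difference of -0.10 (adjusted p = 0.616). PEG3 minus ZIM2 was 0.94 higher in LY294002, with a gap of 0.47.

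**Figure D2:**
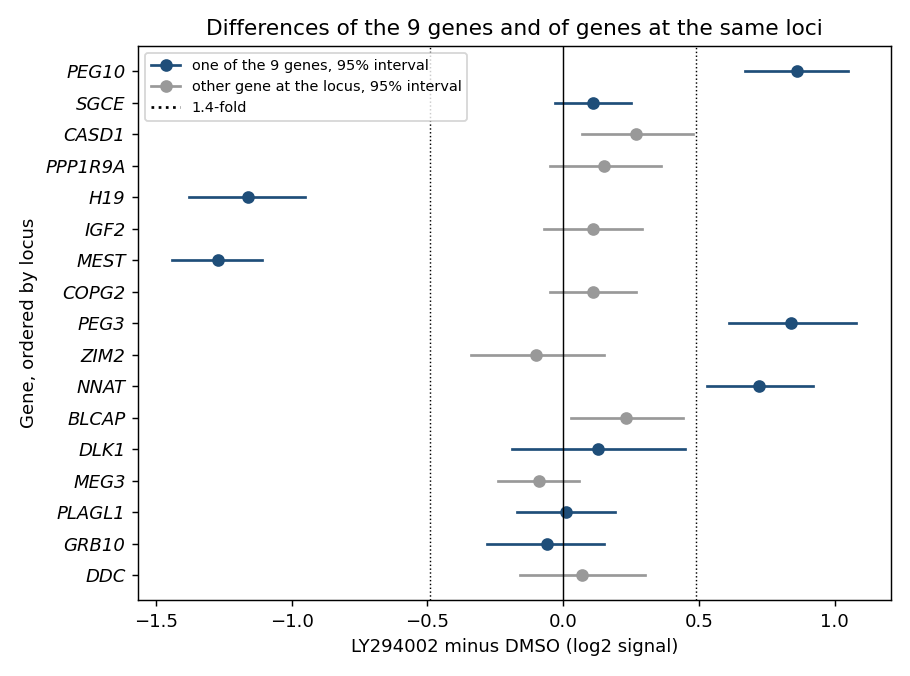
LY294002 minus DMSO on the log2 scale with 95% intervals from the linear model, for the 9 imprinted genes (blue) and for other genes of their loci (gray), grouped by locus. Dotted lines mark 1.4-fold in either direction. PEG10, H19, MEST, PEG3 and NNAT lie beyond these lines, and the gray genes lie between them. Not every neighboring gene is drawn, and COL1A2 near SGCE, which rose (0.60), is left out.

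**Figure D3:**
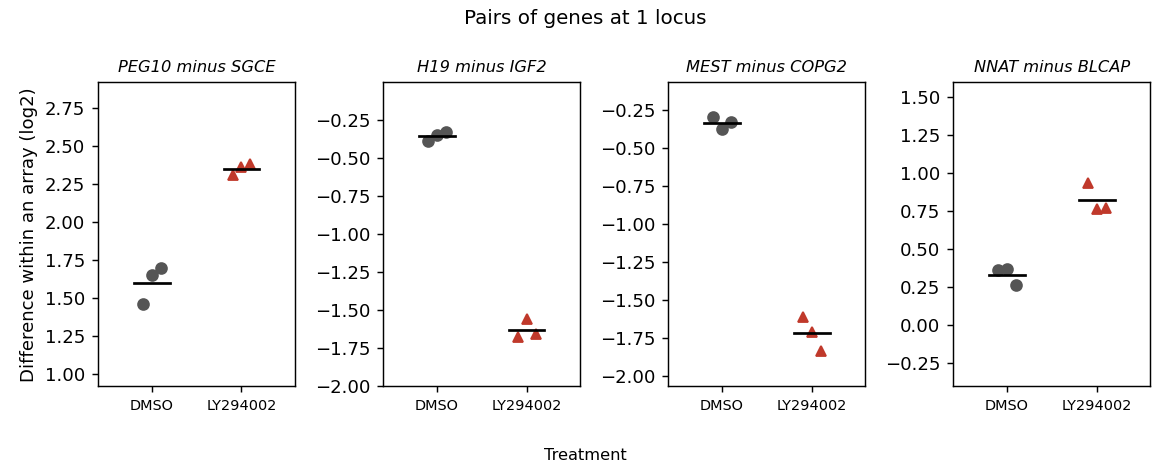
Signal of 1 gene minus that of another gene of its locus on each array (log2), by treatment, with a line for the mean of 3 arrays and the same span on each axis. The groups do not overlap in the 4 pairs shown, which are PEG10 minus SGCE, H19 minus IGF2, MEST minus COPG2 and NNAT minus BLCAP. In each of these the first gene was called and the second was not, so the separation largely follows from those calls. In DLK1 minus MEG3, which is not drawn, the groups overlap.

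To cover all loci in the same way, the nearest 2 genes with a probe on either side of each of the 9 genes were taken from the RefSeq gene order. PEG10, which rose, and SGCE are neighbors of each other and were not counted again. The other neighbors were 32 genes, several of them the partners given above, of which 1 rose, 0 fell and 31 did not pass. The gene that rose was COL1A2, a chain of type I collagen near SGCE (difference 0.60, SE 0.08, adjusted p = 0.0064). At an unadjusted p under 0.05, 3 of the 32 were higher and 2 lower, while 15.0% of all 18010 genes were higher and 16.2% lower at that threshold. Their median difference was 0.07 and that of all genes 0.01, and the called share was 3.12%, beside 6.98% of all genes.

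A wider list held genes that are known as imprinted in at least 1 mammal, some of them only in the placenta or the brain. It overlaps the neighboring genes, with IGF2, MEG3, BLCAP, COPG2 and PPP1R9A among those in both, so the counts are not separate. Of 59 such genes with a probe, 2 rose, 4 fell and 53 did not pass. The called share was 10.2%, beside 6.98% of all genes, and the median difference was 0.03. The largest fall was that of SLC22A3, an organic cation transporter gene, from 6.24 ± 0.19 to 4.85 ± 0.29 (SD, n = 3), a difference of -1.40 (SE 0.17, adjusted p = 0.00369). GATM, an enzyme of creatine synthesis, fell from 8.76 ± 0.10 to 7.65 ± 0.08 (SD, n = 3), a difference of -1.12 (SE 0.08, adjusted p = 0.000868).

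GAB1, an adaptor that couples growth factor receptors to PI3K, fell by 0.53 on the log2 scale (SE 0.07, adjusted p = 0.00589). INPP5F, a phosphatase of membrane inositol lipids, rose by 0.75 (SE 0.06, adjusted p = 0.00108). The amino acid transporter gene SLC38A4 was dim, with 3.17 ± 0.16 in DMSO (SD, n = 3), and had a difference of -0.72 (SE 0.12, adjusted p = 0.0137). Its call was lost without LY294002 replicate 2 (-0.65, adjusted p = 0.051) or LY294002 replicate 3 (-0.68, adjusted p = 0.0548), and without moderation of the variances (adjusted p = 0.0572). Its probe is among the dimmest 25%, so it was not tested where those probes were left out. INPP5F and SLC38A4 also stand in the study's lists of genes called with both inhibitors, which rest in part on these arrays. Their direction with LY294002 there is no independent evidence.

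CDKN1C, a maternally expressed inhibitor of cyclin-dependent kinases, read 4.66, 5.06 and 5.14 in DMSO and 5.48, 5.41 and 5.64 in LY294002, a difference of 0.56 (SE 0.14, adjusted p = 0.0458). This call was lost when any 1 of the 6 arrays was left out. The difference then lay between 0.41, without DMSO replicate 1, and 0.65, without DMSO replicate 3, and the adjusted p between 0.0563, without DMSO replicate 3, and 0.136, without LY294002 replicate 3. With the replicate number as a block the adjusted p was 0.0634.

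Among other genes of the network that PLAGL1 regulates in mice, IGF2R (-0.23, adjusted p = 0.0586) and GNAS (0.04 for its brighter probe, adjusted p = 0.737) did not pass. NDN had a difference of 0.25 (adjusted p = 0.0498) and the proteoglycan gene DCN one of -0.29 (adjusted p = 0.0454), both under 1.4-fold. Of 8 network genes outside the 9, which include IGF2, MEG3, GATM and CDKN1C given above, 1 rose (CDKN1C, with the losses given above), 1 fell (GATM) and 6 did not pass, beside 6.98% of all genes called. All 8 are also counted in the wider list of imprinted genes.

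Imprints are kept by DNA methylation and by proteins that read it. A list of 25 genes, here called imprint maintenance factors, held genes for such proteins and others. The others include the demethylase genes TET1, TET2 and TET3 and the histone methylation genes EZH2 and EED. Of the 25, 0 rose and 0 fell with limma, beside 6.98% of all genes called. Yet 8 were higher and 3 lower at an unadjusted p under 0.05. At that threshold 15.0% of all genes were higher and 16.2% lower. Without the dimmest 25% of probes, where a change may not be seen, 22 of the list were tested and 0 passed. CTCF, which binds the control region between H19 and IGF2, went from 8.06 ± 0.07 to 8.37 ± 0.01 (SD, n = 3), a difference of 0.31 (SE 0.06, adjusted p = 0.0255) that stayed under 1.4-fold. ZNF445, a zinc finger protein that protects imprints, had the same difference (0.31, adjusted p = 0.0222). The DNA demethylase gene TET1 had a difference of -0.47 (SE 0.10, adjusted p = 0.0292), just under 1.4-fold. It passed without LY294002 replicate 2 (-0.57, adjusted p = 0.0149), while leaving out any other array raised its adjusted p to between 0.0757 and 0.0904, and the replicate block raised it to 0.0569. The DNA methyltransferase gene DNMT3B had a difference of 0.30 (adjusted p = 0.0344) and ARID4B one of 0.32 (adjusted p = 0.0422), both under 1.4-fold. These were the 5 genes of the list with an adjusted p under 0.05.

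**Figure D4:**
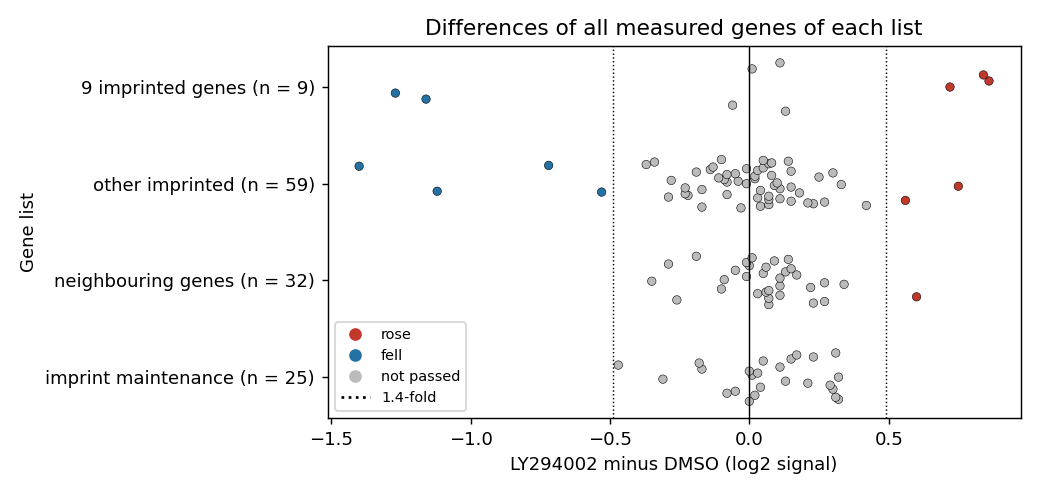
LY294002 minus DMSO on the log2 scale for each measured gene of 4 lists, with 1 point per gene, colored by whether it rose, fell or did not pass, and dotted lines at 1.4-fold. The 9 genes hold 5 called genes, the other imprinted genes 6 of 59, the neighboring genes 1 of 32 and the imprint maintenance factors 0 of 25. Of all genes, 6.98% were called. The 9 genes were chosen with these values in view, so their count is a description, and the other imprinted and neighboring genes overlap. Height within a row has no meaning.

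The 5 genes whose pattern over the 6 arrays was most like that of H19, measured as the Euclidean distance between centered log2 signals, were DDIT4 (0.13), SLC5A6 (0.15), CHN2 (0.16), NXNL2 (0.18) and OLFML2B (0.19). DDIT4, an inhibitor of mTORC1 signaling, went from 7.89 ± 0.11 to 6.76 ± 0.10 (SD, n = 3), and SLC5A6 is a vitamin transporter gene. The distance takes in how far a gene fell, and all 5 passed the thresholds downward, as H19 did.

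Several of the 9 genes are also expressed in other cells of the ovary, so marker genes of those cells are given for the same arrays. The marker counts below stand beside the share of all genes that were called, 6.98% (2.99% higher and 3.99% lower). These lists are short, so their counts are a description. Of 7 measured stroma or fibroblast markers, 2 rose, PDGFRA (0.69, adjusted p = 0.00117) and COL1A2 (0.60), 0 fell and 5 did not pass. Of these 5, THY1 had a positive difference (0.49, adjusted p = 0.0862), while DCN (-0.29, adjusted p = 0.0454), COL1A1 (-0.17, adjusted p = 0.126), LUM (-0.05) and COL3A1 (-0.02) had negative ones, and the median over the 7 was -0.02. The mean signal of the stroma markers was 9.27 to 9.33 on the DMSO arrays and 9.43 to 9.57 on the LY294002 arrays. Of 7 measured theca markers, INSL3 fell (-1.05, adjusted p = 0.00763), 0 rose and 6 did not pass. Their mean was 6.29 to 6.41 in DMSO and 6.03 to 6.17 in LY294002.

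CYP17A1, the defining theca enzyme, was dim in both groups (3.02 ± 0.09 and 2.98 ± 0.21, SD, n = 3). Other theca markers were bright in DMSO, with INSL3 at 8.22 ± 0.23 and HSD3B1 at 12.18 ± 0.02 (SD, n = 3). LHCGR read 3.52 ± 0.15 in DMSO (SD, n = 3) and had a difference of -0.53 (adjusted p = 0.0552). At an unadjusted p under 0.05 by limma, 4 of the 7 theca markers were lower and 0 higher, beside 16.2% and 15.0% of all genes. Of 5 endothelial, 5 leukocyte and 4 oocyte markers, 0 were called by limma, beside 6.98% of all genes. At an unadjusted p under 0.05, 1 endothelial marker was lower and no other marker of these lists differed. The mean signal of the 10 granulosa markers moved as well, from 7.99 to 8.09 on the DMSO arrays to 7.71 to 7.78 on the LY294002 arrays, while NR5A2 rose (1.04), CYP19A1 (-1.97), FOXL2 (-0.75), AMHR2 (-0.72) and AMH (-0.61) fell and 5 did not pass. The called share of the 10 was 50.0%, beside 6.98% of all genes. The median difference over the 10 was -0.17, and CYP19A1 weighs heavily in the mean. CYP19A1, the aromatase gene of estradiol synthesis, had the largest difference of the 10, and INHA (-0.05), INHBA (-0.05), FSHR (0.25), GATA4 (0.20) and HSD17B1 (-0.29, adjusted p = 0.0495, under 1.4-fold) did not pass. The part of these shifts in the differences of the imprinted genes was not tested.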

How the data were processed

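The deposited values are log2 signals that the authors obtained with RMA, which corrects the background, normalizes the arrays and summarizes each transcript cluster, here called a probe. The version of RMA and the genome build are not given in the sources used here. Of 24415 probes, 18457 had 1 symbol in the platform table, 688 several and 5270 none. Where 1 of 18010 genes had several probes (401 genes), the probe listed in the study's supplementary sheets was used, otherwise the brightest. Gene order came from RefSeq (ARS-UCD2.0) and was used without coordinates. Sequences and promoter motifs are not analysed here.

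The 2 groups were compared over all probes with limma 3.58.1 (lmFit, then eBayes; R 4.3.3), with Benjamini-Hochberg adjustment and without a covariate. The 9 genes, the lists and the tests were chosen with earlier results of these data known. Named by rule are the 9 genes, called genes of each list, fixed partners of their loci (MIR675 is not analysed here) and the 5 patterns nearest to H19. Other genes named without a call, such as CTCF, TET1, CASD1 and DCN, were chosen after their values were seen. Alternatives were other variance models, scalings, filters and thresholds, the replicate number as a block, and leaving out each array. The number of arrays limits the precision.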

Additional observations from a re-analysis of the deposited data

How the results depend on the processing

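Each of the 9 differences was recomputed under 14 alternatives, and in all 126 cases the gene stayed on its side of the thresholds. Leaving out 1 array at a time gave -1.24 to -1.12 for H19, -1.32 to -1.25 for MEST, 0.79 to 0.89 for PEG10, 0.78 to 0.94 for PEG3 and 0.67 to 0.76 for NNAT. The 5 called genes stayed called without any 1 array. At a fold change of at least 2, the called genes were 2 of the 9 (H19 and MEST), 2 of the other imprinted genes, 0 of the neighboring genes and 268 of all probes, compared with 1454 at 1.4-fold. These falls follow from the stricter threshold. Without LY294002 replicate 2, 1 imprint maintenance factor passed (TET1). Leaving out each array in turn gave 0 to 1 of these factors. Same-numbered arrays did not deviate together (r from -0.044 to -0.021), so the numbers were not taken as pairs. With the replicate block 5 of the 9 genes and 1252 probes passed. Only summarized values were used, so the background correction could not be varied, and no detection limit is known. None of the 9 probes was among the dimmest 25% (mean signal under 3.17).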

Other observations

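The cluster that begins with DLK1 also holds many microRNA genes. RefSeq lists 59 of them between DLK1 and DIO3, and 39 have a probe of their own. This list was added after the values of DLK1 were seen. None of the 39 was called by limma (0 rose and 0 fell), beside 6.98% of all genes. With an unadjusted p under 0.05, 3 were higher and 2 lower, beside 15.0% and 16.2% of all genes. Their mean signal was 2.14 to 2.18 on the DMSO arrays and 2.15 to 2.18 on the LY294002 arrays, below the signal of 3.17 that bounds the dimmest 25% of probes. The lowest adjusted p was that of MIR376D (difference -0.29, adjusted p = 0.0401), named after its value was seen, which stayed under 1.4-fold. The array labels the RNA from precursors as well as from longer transcripts, so these values do not give mature microRNA levels. DIO3, a thyroid hormone deiodinase gene at the end of the cluster, was also dim (3.45 ± 0.06 in DMSO, SD, n = 3) and had a difference of -0.08 (adjusted p = 0.506).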
